A study of Mus musculus with 12 samples.

Results

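The genes described here are those of MHC antigen processing and presentation: the class II chains and their peptide-loading machinery, the class I light chain with its transporters and chaperones, the immunoproteasome, and the transcription factors that control them. They were chosen by name, as 38 gene symbols, with earlier results of these data known, as were the other gene lists below. Shares of all genes printed beside their counts are therefore no test of these sets. Each gene was read from the probe set that carried its symbol alone, taking the brightest where there were several. Of the 38 genes, 33 had such a probe set, out of 19938 genes on the array. H2-K1, H2-D1, H2-DMb1, H2-DMb2 and H2-T3 lay only on probe sets annotated with several genes and were left out, so the classical class I heavy chains are not represented.

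RNA of whole jejunum, the middle stretch of the small intestine, was measured on 12 one-colour arrays, 1 per mouse. There were 2 Fgfr1op KO mice and 2 wild-type (WT) mice at each of days 6, 9 and 12 on a time scale named post-tamoxifen. To ablate the gene, tamoxifen was given intraperitoneally at 75 mg/kg, daily for 5 days, per the labels' protocol. Not given in the labels are the promoter driving the recombinase, the deleted exons, the age of the mice and whether the WT mice received tamoxifen. Fgfr1op, now named Cep43, encodes a protein of the centrosome. In tissue extracts, fewer cells of a type and less RNA per cell cannot be told apart.

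MHC class I molecules are present on nearly all nucleated cells and show peptides cut from proteins of the cell itself. The proteasome makes those peptides, the TAP transporter carries them into the endoplasmic reticulum, and tapasin and its partners fit them into a heavy chain paired with beta-2 microglobulin. MHC class II molecules show peptides of material taken up from outside, mainly on dendritic cells, B cells and macrophages, and in the small intestine also on enterocytes. Interferon gamma raises both arms, through Irf1, the class II transactivator Ciita and its class I counterpart Nlrc5, and it replaces catalytic subunits of the constitutive proteasome by those of the immunoproteasome.

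Class II promoters and those of class I genes are known to share an S-X-Y module, in which the X box binds the RFX complex and the Y box is a reversed CCAAT box that binds NF-Y; interferon gamma acts through GAS elements and through ISRE elements, the second of which bind IRF proteins. The promoters of H2-Aa, H2-Eb1, B2m and Irf1 are shown because these genes stand for the class II chains, the class I arm and the regulators in the results that follow. The stretch between Tap1 and Psmb9 is shown because these divergent neighbours, a peptide transporter and an immunoproteasome subunit, were both called lower in KO. All sequences are from RefSeq on GRCm38.p6, written 5' to 3' along the gene named. Capitals mark each match to CCAAT, TTCNNNGAA (GAS) or GAAA, any 2 bases and GAAA again (ISRE) on either strand, ATTGG being CCAAT reversed.
H2-Aa, chr17:34287844-34287973, minus strand, bases 150 to 21 before the start: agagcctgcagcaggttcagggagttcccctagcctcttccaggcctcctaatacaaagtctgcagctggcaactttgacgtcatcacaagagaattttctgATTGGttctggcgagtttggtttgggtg
H2-Eb1, chr17:34305717-34305846, plus strand, bases 150 to 21 before the start: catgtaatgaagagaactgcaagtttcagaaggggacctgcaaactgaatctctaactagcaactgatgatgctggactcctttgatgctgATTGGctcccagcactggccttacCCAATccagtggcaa
B2m, chr2:122147537-122147666, plus strand, bases 150 to 21 before the start: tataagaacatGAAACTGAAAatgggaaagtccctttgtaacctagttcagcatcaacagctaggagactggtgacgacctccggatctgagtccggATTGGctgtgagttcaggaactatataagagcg
Irf1, chr11:53769864-53769993, plus strand, bases 150 to 21 before the start: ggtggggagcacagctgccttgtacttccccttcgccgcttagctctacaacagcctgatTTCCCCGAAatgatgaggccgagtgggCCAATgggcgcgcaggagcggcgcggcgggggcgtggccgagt
Tap1, chr17:34187331-34187555, plus strand, the 225 bases between the starts of Psmb9 and Tap1: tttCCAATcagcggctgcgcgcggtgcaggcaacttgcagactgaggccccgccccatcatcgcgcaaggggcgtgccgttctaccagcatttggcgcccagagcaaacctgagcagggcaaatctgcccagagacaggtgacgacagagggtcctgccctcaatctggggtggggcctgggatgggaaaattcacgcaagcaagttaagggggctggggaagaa

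H2-Aa held a reversed CCAAT box 48 bases before its start and H2-Eb1 held one at 59 with a forward copy at 35. B2m held a reversed CCAAT box at 53 and an ISRE at 139, and Irf1 a GAS match at 90 and a CCAAT box at 63. The CCAAT box between the divergent pair lay 222 bases before the start of Tap1, which is 8 bases before that of Psmb9 and there reads in reverse. Promoters in RefSeq were matched for 25 of the 33 genes, 28 promoters in all, and the 250 bases before each start were searched. CCAAT in either orientation was found in 17 of these 28 promoters (60.7%), against 33.8% of all 32851 promoters. GAS was found in 3 (10.7%, those of Irf1, Psmb8 and H2-M3), against 7.02% of all promoters. ISRE was found in 2 (7.14%, those of B2m and Ctss), against 2.98%. These matches describe letters, and binding was not measured.

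Array medians lay between 5.95 and 6.02 on the log2 scale, and the paired arrays of each group correlated at 0.992 to 0.997 across genes. Cep43, which the knockout targets, read 6.69 and 6.56 in KO and 6.97 and 6.90 in WT at day 6. Its day 9 signals were 6.60 and 6.63 in KO and 6.96 and 7.05 in WT, and the day 12 signals were 6.97 and 6.74 in KO and 6.83 and 7.04 in WT. Both KO arrays lay below both WT arrays at days 6 and 9 and the genotypes overlapped at day 12; the difference passed at day 9 alone (-0.39, SE 0.11, adjusted p = 0.0184). Whether its probes lie in the deleted part is not known, so this checks the labels only weakly. The tissue label fits its markers: Epcam, a surface protein of intestinal epithelium, averaged 10.95 to 11.30 over the 6 groups and Fabp2, the enterocyte fatty acid binding protein, 12.66 to 13.51. Smooth muscle genes, averaged relative to their mean over all WT arrays, were unbalanced at day 6. They stood at -1.04 and -1.17 in KO arrays, against 0.61 and -0.09 in WT arrays. At day 9 they stood at 0.30 and -0.79 in KO and -0.76 and -0.04 in WT. The day 12 means were 0.91 and 0.31 in KO and 0.08 and 0.20 in WT. Differences were tested with limma. A call here means an adjusted p under 0.05, with the adjustment made over all 19938 genes, and the p-values rest on 2 mice per group. For a single day, a fall or rise means a signal lower or higher in KO than in WT. It is not a change over days.

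No antigen presentation gene passed the test at day 6, and most of them were lower in KO than in WT at days 9 and 12. At day 6, 0 of the 33 genes were called and 0 had an unadjusted p under 0.05, while 1.03% of all genes were called and 11.8% had an unadjusted p under 0.05. At day 9, 22 fell and 1 rose in KO, where 29.7% of all genes were called, 17.1% lower and 12.6% higher. An unadjusted p under 0.05 was found for 26 of the 33 and 39.6% of all genes. At day 12, 22 fell and 0 rose, where 27.3% of all genes were called, 13.7% in each direction. The median log2 difference of the 33 genes was -0.07 at day 6, -0.59 at day 9 and -0.89 at day 12, and that of all genes was 0.003, 0.025 and 0.024.

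Of the 33 genes, 19 were lower at both days 9 and 12. Mr1, Rfx5 and Rfxank were called lower at day 9 alone, and Ctss, Calr and Ciita at day 12 alone, which does not by itself show that these differences changed between the days. Both KO arrays lay below both WT arrays for 8 genes at day 6 (20.9% of all genes), for 25 at day 9 (31.1%) and for 28 at day 12 (26.6%). Both lay above for 3 genes at day 6 (23.7%), 3 at day 9 (34.6%) and 0 at day 12 (31.6%). Neither direction was called at day 9 or 12 for H2-Oa, H2-Ob, H2-M3, Cd1d1, Pdia3, Rfxap and H2-Ke6.

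**Figure D1:**
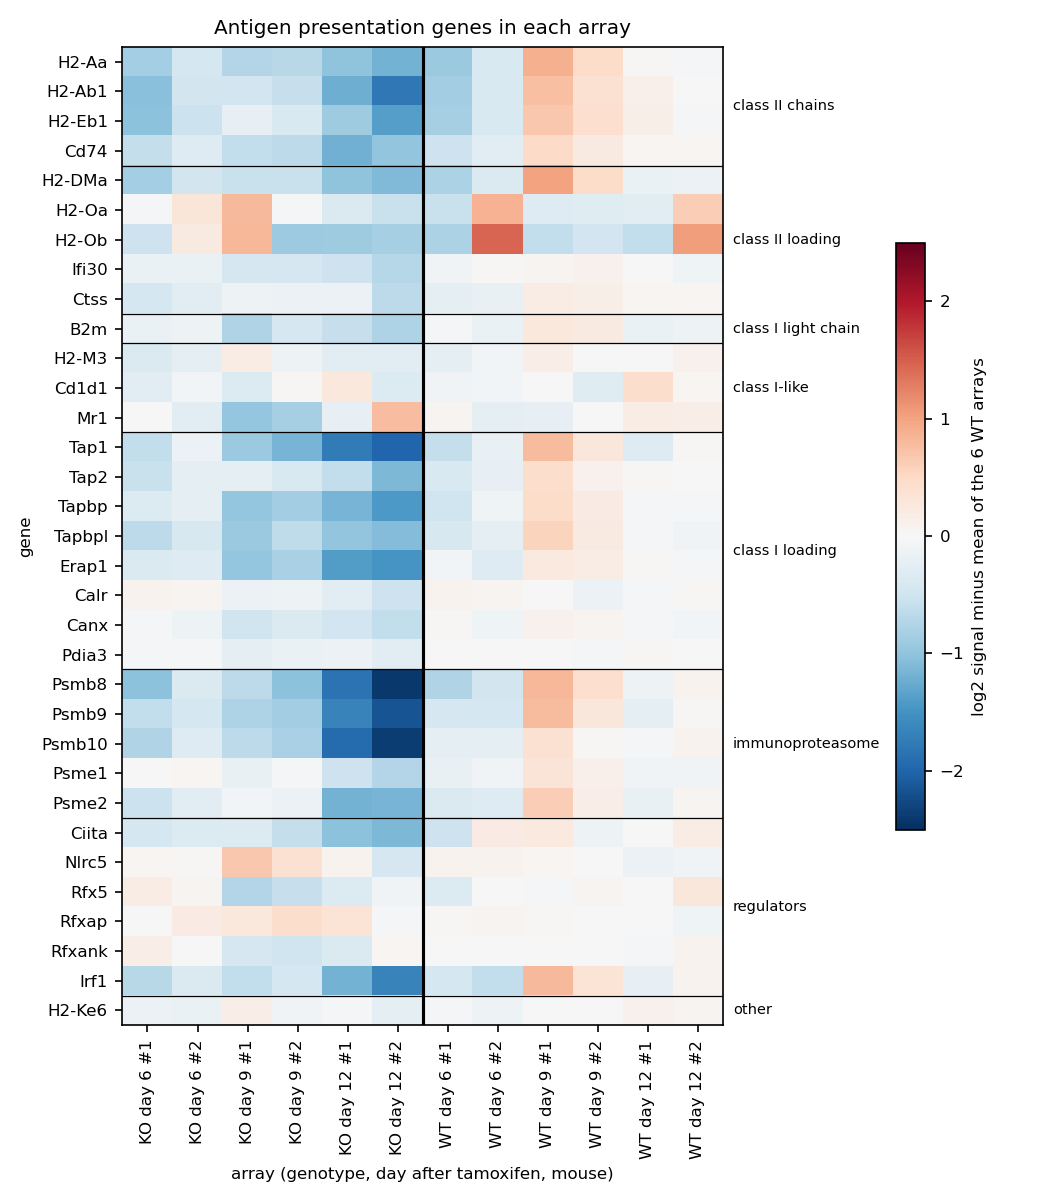
Heat map of the 33 genes (rows, grouped by role) in the 12 arrays (columns, KO at left and WT at right, by day and mouse), with colour for the log2 signal minus the mean of the 6 WT arrays. Class II chains, most class I loading genes and immunoproteasome subunits are blue in the KO arrays of day 12 and red in the WT arrays of day 9, and H2-Oa and H2-Ob are red in single arrays of either genotype.

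**Figure D2:**
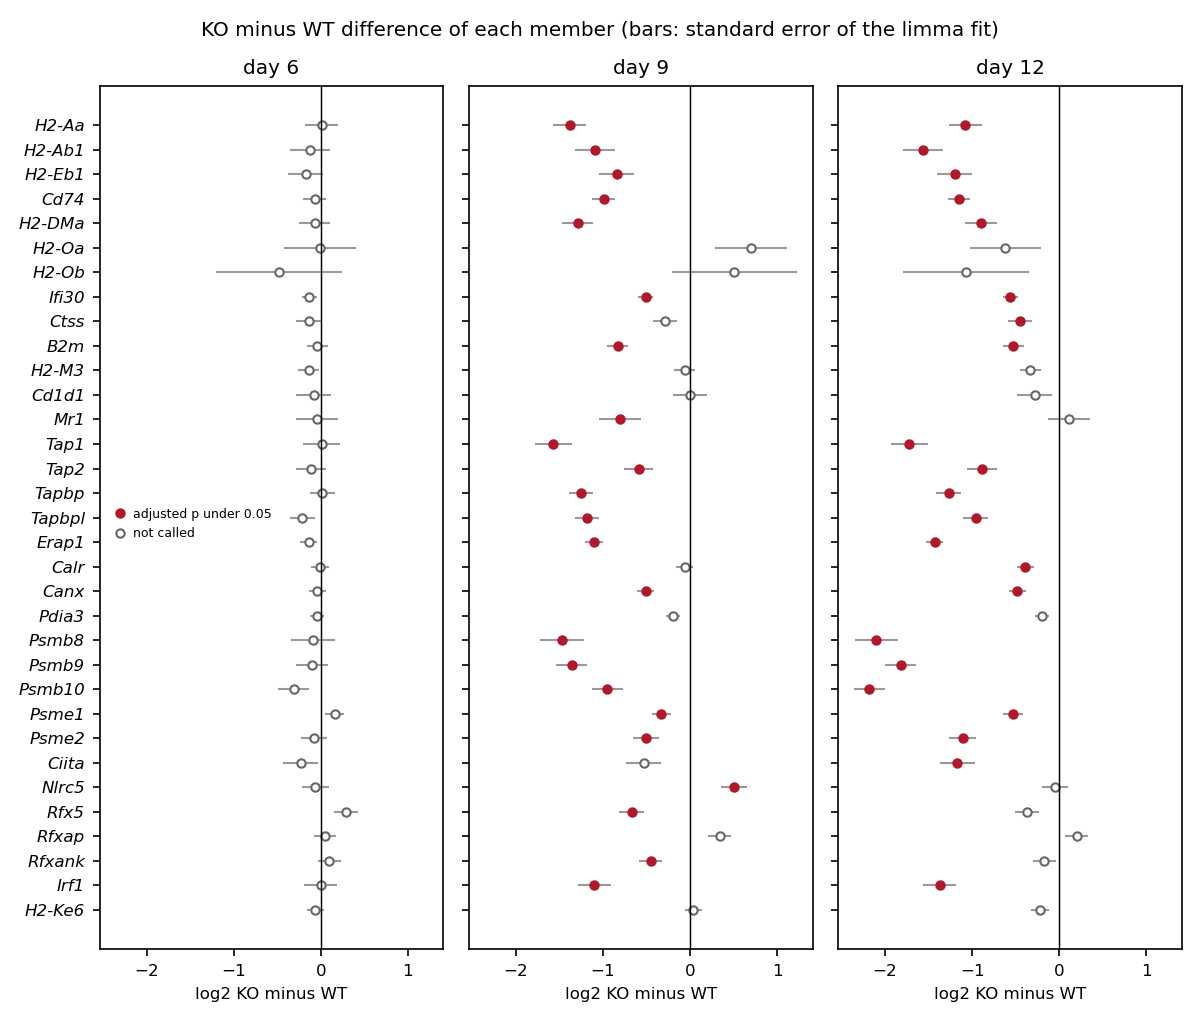
Log2 difference of KO minus WT for each gene (rows) at days 6, 9 and 12 (panels), with bars for the standard error of the limma fit and filled points for an adjusted p under 0.05. Points lie around 0 at day 6 (-0.48 to 0.29) and mostly left of 0 at days 9 and 12, with 22 filled on the left at each of these days.

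All 4 measured class II chain genes were lower in KO than in WT at days 9 and 12. H2-Aa, the alpha chain of the I-A molecule, had log2 signals of 9.68 and 10.09 in KO and 9.60 and 10.15 in WT at day 6. Its signals at day 9 were 9.80 and 9.84 in KO and 11.42 and 10.99 in WT, and the day 12 signals were 9.52 and 9.36 in KO and 10.57 and 10.48 in WT. The genotypes overlapped at day 6, and at the later days both KO arrays lay below both WT arrays. Its signal was 2.61-fold lower in KO at day 9 (log2 -1.38, SE 0.19, adjusted p = 2.52e-04) and 2.11-fold lower at day 12 (log2 -1.08, SE 0.19, adjusted p = 0.00128). H2-Ab1, the beta chain of I-A, had 10.44 and 11.03 in KO and 10.62 and 11.10 in WT at day 6. On the day 9 arrays it had 11.01 and 10.91 in KO and 12.24 and 11.86 in WT, and the day 12 signals were 10.27 and 9.70 in KO and 11.62 and 11.48 in WT. KO and WT overlapped at day 6 and were apart at days 9 and 12, when KO was 2.13-fold (log2 -1.09, SE 0.23, adjusted p = 0.00448) and 2.95-fold lower (log2 -1.56, SE 0.23, adjusted p = 3.92e-04).

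H2-Eb1, the beta chain of the I-E molecule, had log2 signals of 8.66 and 9.15 in KO and 8.85 and 9.30 in WT at day 6. At day 9 it had means of 9.39 ± 0.12 in KO and 10.23 ± 0.19 in WT (SD, n = 2 each), and the day 12 signals were 8.79 and 8.30 in KO and 9.83 and 9.66 in WT. KO arrays were below WT arrays at days 9 and 12 and overlapped with them at day 6. The difference was -0.84 at day 9 (SE 0.20, adjusted p = 0.00926) and -1.20 at day 12 (SE 0.20, adjusted p = 9.74e-04). The day 9 call of H2-Eb1 was lost when KO replicate 2 (-0.76, adjusted p = 0.0534) or WT replicate 1 (-0.71, adjusted p = 0.0773) of that day was left out. Cd74, the invariant chain that guards the peptide groove until loading, had 11.70 and 11.96 in KO and 11.78 and 12.01 in WT at day 6. Its day 9 values were 11.67 and 11.63 in KO and 12.76 and 12.51 in WT, and the day 12 signals were 11.08 and 11.30 in KO and 12.34 in each WT array. Like the chains it pairs with, it had both KO arrays below both WT arrays at days 9 and 12, and it fell by 0.99 at day 9 (SE 0.13, adjusted p = 1.68e-04) and by 1.15 at day 12 (SE 0.13, adjusted p = 4.54e-05).

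Among the 5 genes of class II loading, 2 fell at day 9 and 3 at day 12. H2-DMa, a chain of the H2-DM molecule that exchanges the invariant chain fragment for peptide, had log2 signals of 7.02 and 7.40 in KO and 7.07 and 7.49 in WT at day 6. At day 9 it had 7.30 in each KO array and 8.86 and 8.32 in WT, and the day 12 signals were 6.86 and 6.76 in KO and 7.70 and 7.72 in WT. The genotypes overlapped at day 6 only, with differences of -1.29 at day 9 (SE 0.18, adjusted p = 3.14e-04) and -0.90 at day 12 (SE 0.18, adjusted p = 0.00310). Ifi30, the lysosomal thiol reductase that opens disulphide bonds of antigens, fell by 0.51 at day 9 (SE 0.09, adjusted p = 0.00169) and by 0.56 at day 12 (SE 0.09, adjusted p = 8.85e-04). Ctss, the protease that trims the invariant chain, differed by -0.29 at day 9 (adjusted p = 0.14) and fell by 0.45 at day 12 (SE 0.14, adjusted p = 0.0331). Its day 12 call was lost without KO day 12 replicate 2 (-0.19, adjusted p = 0.234) and without either WT array of that day (-0.44 and -0.45, adjusted p = 0.121 and 0.119), and without KO day 12 replicate 1 the difference was -0.71.

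H2-Oa and H2-Ob, the chains of the H2-O molecule that restrains H2-DM and is best known from B cells, varied widely within some groups. H2-Ob had log2 signals of 5.40 and 6.14 in KO and 5.12 and 7.38 in WT at day 6. Its day 9 signals were 6.75 and 5.01 in KO and 5.30 and 5.45 in WT, and the day 12 signals were 5.04 and 5.09 in KO and 5.30 and 6.97 in WT. Single arrays were high, namely KO replicate 1 at day 9 and WT replicate 2 at days 6 and 12. H2-Oa was highest in the same 3 arrays, with 6.43 in that KO array and 6.49 and 6.24 in those WT arrays, against 5.06 to 5.92 in the other 9. The mean of 15 B cell markers was also highest in those arrays, at 0.62 in the KO array of day 9 and at 0.91 and 0.73 in the WT arrays of days 6 and 12, against -0.56 to 0.22 in the other 9. Neither H2-Oa (SE 0.41) nor H2-Ob (SE 0.72) was called at any day, and the sign of H2-Ob turned with these arrays. Its difference was -0.48 at day 6 and 0.65 without WT day 6 replicate 2, and 0.51 at day 9 and -0.37 without KO day 9 replicate 1. At day 12 H2-Ob differed by -1.07 and H2-Oa by -0.62, with both KO arrays below both WT arrays for each gene. With these standard errors, a fall like that of the other class II genes could be missed.

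The class I light chain and most genes of class I peptide loading were lower in KO than in WT at days 9 and 12. B2m, beta-2 microglobulin, had log2 signals of 12.82 and 12.85 in KO and 12.95 and 12.82 in WT at day 6. Its signals at day 9 were 12.23 and 12.56 in KO and 13.24 and 13.20 in WT, and the day 12 signals were 12.40 and 12.20 in KO and 12.81 and 12.85 in WT. KO was below WT in all arrays of days 9 and 12, by 0.83 at day 9 (SE 0.12, adjusted p = 2.97e-04) and 0.53 at day 12 (SE 0.12, adjusted p = 0.00525). Tap1, a subunit of the peptide transporter, had 8.10 and 8.56 in KO and 8.12 and 8.52 in WT at day 6. On the day 9 arrays it had 7.78 and 7.56 in KO and 9.50 and 8.99 in WT, and the day 12 signals were 6.97 and 6.74 in KO and 8.40 and 8.75 in WT. Its arrays overlapped at day 6 and were more than 1 log2 unit apart later, with KO 2.98-fold lower at day 9 (log2 -1.57, SE 0.21, adjusted p = 1.89e-04) and 3.30-fold lower at day 12 (log2 -1.72, SE 0.21, adjusted p = 8.19e-05). Tap2, the other transporter subunit, fell by 0.59 at day 9 (SE 0.17, adjusted p = 0.0211) and by 0.89 at day 12 (SE 0.17, adjusted p = 0.00192). The day 9 call of Tap2 was lost without either KO array of that day (-0.65 and -0.52, adjusted p = 0.0559 and 0.0974) or without WT replicate 1 (-0.43, adjusted p = 0.166).

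Tapbp, tapasin, which holds the empty class I molecule at the transporter, had log2 signals of 9.96 and 10.07 in KO and 9.80 and 10.19 in WT at day 6. Its day 9 values were 9.33 and 9.44 in KO and 10.77 and 10.51 in WT, and the day 12 signals were 9.14 and 8.86 in KO and 10.28 and 10.26 in WT. Tapbpl, a related peptide editor, had 7.88 and 8.13 in KO and 8.13 and 8.29 in WT at day 6. At day 9 it had 7.60 and 7.89 in KO and 9.09 and 8.76 in WT, and the day 12 signals were 7.55 and 7.45 in KO and 8.48 and 8.44 in WT. Both genes were lower in each KO array than in each WT array at days 9 and 12: Tapbp by 1.25 and 1.27 (SE 0.14 each, adjusted p = 6.5e-05 and 4.66e-05) and Tapbpl by 1.18 and 0.96 (SE 0.14 each, adjusted p = 7.43e-05 and 2.89e-04). Erap1, the aminopeptidase that trims peptides in the endoplasmic reticulum, had 9.02 and 9.04 in KO and 9.30 and 9.05 in WT at day 6. Its day 9 signals were 8.40 and 8.56 in KO and 9.61 and 9.55 in WT, and the day 12 signals were 7.97 and 7.89 in KO and 9.40 and 9.32 in WT. The KO arrays of Erap1 lay below the WT arrays on every day; the fall was 2.14-fold at day 9 (log2 -1.10, SE 0.10, adjusted p = 1.59e-05) and 2.69-fold at day 12 (log2 -1.43, SE 0.10, adjusted p = 1.53e-06), while the day 6 difference of -0.14 did not pass.

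The general chaperones of the endoplasmic reticulum that also serve class I loading had smaller differences. Canx, calnexin, fell by 0.51 at day 9 (SE 0.10, adjusted p = 0.00199) and by 0.48 at day 12 (SE 0.10, adjusted p = 0.00284). Calr, calreticulin, differed by -0.06 at day 9 and fell by 0.39 at day 12 (SE 0.10, adjusted p = 0.0108), a call lost when KO replicate 2 (-0.28, adjusted p = 0.0753) or WT replicate 2 (-0.37, adjusted p = 0.0714) of that day was left out. Pdia3, the disulphide isomerase of the loading complex, differed by -0.19 and -0.20 (SE 0.08, adjusted p = 0.107 and 0.0944).

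All 5 immunoproteasome genes were lower in KO than in WT at days 9 and 12. Psmb8, a catalytic subunit, had log2 signals of 8.05 and 8.72 in KO and 8.32 and 8.62 in WT at day 6. Its signals at day 9 were 8.42 and 8.04 in KO and 9.91 and 9.49 in WT, and the day 12 signals were 7.23 and 6.67 in KO and 8.94 and 9.17 in WT. The WT arrays enclosed by KO at day 6 stood above both KO arrays afterwards, with KO 2.76-fold lower at day 9 (log2 -1.47, SE 0.25, adjusted p = 9.84e-04) and 4.30-fold lower at day 12 (log2 -2.10, SE 0.25, adjusted p = 6.51e-05). Psmb9, its catalytic partner encoded beside Tap1, had 7.77 and 7.95 in KO and 7.97 and 7.95 in WT at day 6. On the day 9 arrays it had 7.62 and 7.52 in KO and 9.18 and 8.68 in WT, and the day 12 signals were 6.73 and 6.23 in KO and 8.16 and 8.43 in WT. Its fall was 2.56-fold at day 9 (log2 -1.36, SE 0.18, adjusted p = 2.16e-04) and 3.53-fold at day 12 (log2 -1.82, SE 0.18, adjusted p = 2.08e-05), with the genotypes apart on both days. Psmb10, the catalytic subunit encoded outside the MHC, had 8.90 and 9.32 in KO and 9.42 and 9.41 in WT at day 6. Its day 9 values were 9.00 and 8.84 in KO and 10.04 and 9.69 in WT, and the day 12 signals were 7.73 and 7.27 in KO and 9.61 and 9.74 in WT. KO lay below WT on each day, without passing at day 6 (-0.31), with differences of -0.95 at day 9 (SE 0.18, adjusted p = 0.00188) and -2.18 at day 12 (4.53-fold lower, SE 0.18, adjusted p = 3.67e-06).

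Psme1 and Psme2 encode the PA28 activator that caps the proteasome. Psme2 had log2 signals of 8.80 and 9.07 in KO and 8.99 and 9.03 in WT at day 6. At day 9 it had 9.27 and 9.20 in KO and 9.96 and 9.51 in WT, and the day 12 signals were 8.17 and 8.18 in KO and 9.15 and 9.42 in WT. The arrays overlapped at day 6 and were apart at days 9 and 12, by 0.50 (SE 0.15, adjusted p = 0.025) and 1.11 (SE 0.15, adjusted p = 1.68e-04). Psme1 fell by 0.33 at day 9 (SE 0.11, adjusted p = 0.0344) and by 0.53 at day 12 (SE 0.11, adjusted p = 0.0027). The day 9 call of Psme2 was lost without either KO array of that day (-0.54 and -0.46, adjusted p = 0.0743 and 0.0965) or WT replicate 1 (-0.27, adjusted p = 0.234). That of Psme1 was lost when replicate 1 of KO (-0.25, adjusted p = 0.203) or of WT (-0.24, adjusted p = 0.233) at day 9 was left out. It was also lost without either KO array of day 6 (-0.33, adjusted p = 0.0503).

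A list of constitutive proteasome subunits, cap subunits, activators and a regulator differed in the other direction. Of 27 measured, 18 rose and 0 fell at day 9 (median 0.47), and 17 rose and 0 fell at day 12 (median 0.34). Of all genes, 12.6% rose and 17.1% fell at day 9, and 13.7% did each at day 12. Psmb5, whose place Psmb8 takes in the immunoproteasome, averaged 8.66 in KO and 7.77 in WT at day 9 (difference 0.90, SE 0.18, adjusted p = 0.00275), and 8.19 in KO and 7.77 in WT at day 12 (0.42, adjusted p = 0.109). Psmd3, a subunit of the regulatory cap, rose by 0.87 at day 9 (SE 0.13, adjusted p = 3.87e-04) and by 0.69 at day 12 (SE 0.13, adjusted p = 0.00171), and Psmb4 (0.76) and Psmb3 (0.69) rose at day 9. With 1 array of day 12 left out, the count of 17 there was 9 (KO replicate 1), 7 (WT replicate 1) or 8 (WT replicate 2).

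Of the 6 regulators, 3 fell and 1 rose at day 9, and 2 fell at day 12. Ciita had log2 signals of 6.39 and 6.49 in KO and 6.32 and 7.03 in WT at day 6. Its day 9 signals were 6.49 and 6.23 in KO and 7.07 and 6.71 in WT, and the day 12 signals were 5.81 and 5.70 in KO and 6.83 and 7.02 in WT. KO arrays lay below WT arrays at days 9 and 12; the difference was -0.53 at day 9 (SE 0.20, adjusted p = 0.0653) and passed at day 12 (-1.17, SE 0.20, adjusted p = 9.76e-04). The day 9 difference of Ciita passed without either WT array of day 6 (adjusted p = 0.015). Irf1 had 8.23 and 8.57 in KO and 8.49 and 8.31 in WT at day 6. Its signals at day 9 were 8.31 and 8.48 in KO and 9.73 and 9.27 in WT, and the day 12 signals were 7.74 and 7.26 in KO and 8.72 and 9.01 in WT. The fall was 2.15-fold at day 9 (log2 -1.10, SE 0.19, adjusted p = 0.00132) and 2.58-fold at day 12 (log2 -1.37, SE 0.19, adjusted p = 2.75e-04), with no overlap on either day. A dimmer probe set of Irf1, with a mean signal of 5.92, differed by -0.17 and -0.24 and also had both KO arrays below both WT arrays.

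Nlrc5 was the exception among the called genes. Its brightest probe set had log2 signals of 9.12 and 9.10 in KO and 9.17 in each WT array at day 6. On the day 9 arrays it had 9.75 and 9.46 in KO and 9.13 and 9.07 in WT, and the day 12 signals were 9.16 and 8.66 in KO and 8.92 and 8.99 in WT. Both KO arrays lay above both WT arrays at day 9, where the difference of 0.51 passed (SE 0.15, adjusted p = 0.0219), and the genotypes overlapped at day 12 (-0.05). The call was lost without KO day 9 replicate 1 (0.36, adjusted p = 0.172) and without either WT array of that day (0.54 and 0.47, adjusted p = 0.0694 and 0.114). Nlrc5 has 19 probe sets of its own, and they did not move together: at day 9, 7 differences were above 0 and 12 below, between -0.81 and 1.01 with a median of -0.05. Both KO arrays lay above both WT arrays in 4 of the 19 and below in 5. At day 12, 2 differences were above 0 and 17 below, with a median of -0.27, and both KO arrays lay below both WT arrays in 9 and above in 0. Averaged over its probe sets, Nlrc5 differed by -0.03 at day 9 (adjusted p = 0.903), so the direction at day 9 depends on the probe set.

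**Figure D3:**
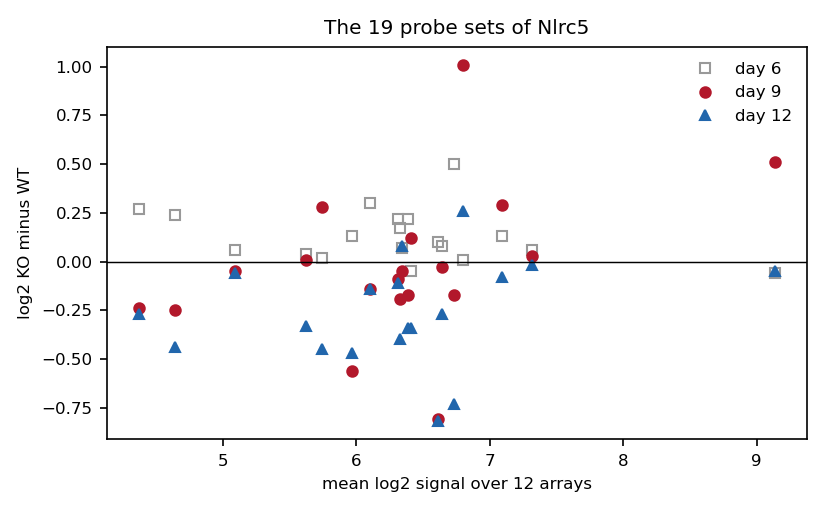
Log2 difference of KO minus WT at days 6, 9 and 12 (markers) for each of the 19 probe sets of Nlrc5, against the mean log2 signal of the probe set over 12 arrays. The brightest, at 9.14, stands at 0.51 at day 9, while the differences of all 19 run from -0.81 to 1.01 on that day and from -0.82 to 0.26 at day 12.

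The 3 genes of the RFX complex, which binds the X box, did not move alike. Rfx5 fell by 0.67 at day 9 (SE 0.14, adjusted p = 0.00367) and differed by -0.37 at day 12 (adjusted p = 0.0696). At day 12 its difference passed without either WT array of day 6 (adjusted p = 0.0495) or KO day 12 replicate 2 (-0.49, adjusted p = 0.0444), and was -0.24 without WT day 12 replicate 2. Rfxank fell by 0.45 at day 9 (SE 0.13, adjusted p = 0.0192), a call lost without any 1 array of that day (-0.49 to -0.41), and differed by -0.17 at day 12, passing there without KO replicate 2 (-0.38, adjusted p = 0.0305). Rfxap stood at 0.34 at day 9 (SE 0.13, adjusted p = 0.0703) and at 0.20 at day 12. It passed at day 9 without either KO array of day 12 (adjusted p = 0.0236), and at day 12 without KO replicate 2 (0.40, adjusted p = 0.0337).

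Of the 3 measured class I-like molecules that present special ligands, 1 fell at day 9 and 0 were called at day 12. Mr1, which shows vitamin B metabolites to mucosal-associated T cells, fell by 0.80 at day 9 (SE 0.24, adjusted p = 0.026), with 6.45 and 6.59 in KO and 7.22 and 7.43 in WT. At day 12 Mr1 read 7.22 and 8.19 in KO and 7.61 and 7.58 in WT, so that the genotypes overlapped. Its day 9 call was lost without any 1 array of that day (-0.91 to -0.70), and without KO day 12 replicate 1 its day 12 difference of 0.11 became 0.59 and passed (adjusted p = 0.0193). H2-M3, which shows formylated bacterial peptides, differed by -0.06 and -0.33 (SE 0.12, adjusted p = 0.753 and 0.0619), the day 12 difference passing without either KO array of day 9 (adjusted p = 0.0326). Cd1d1, which shows lipids, averaged 6.10 in each genotype at day 9 and differed by -0.28 at day 12 (SE 0.20, adjusted p = 0.378). H2-Ke6, a hydroxysteroid dehydrogenase gene that lies in the MHC without a role in presentation, differed by 0.04 and -0.22 (SE 0.10, adjusted p = 0.803 and 0.149).

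A further list of class I heavy chains and class I-like genes outside the 33 held 18 measured genes. Of these, 1 rose and 4 fell at day 9 and 2 rose and 5 fell at day 12 (medians -0.06 and -0.02). Of all genes, 12.6% rose and 17.1% fell at day 9, and 13.7% did each at day 12. The 1 rise at day 9 was lost when any 1 array of that day was left out, or either KO array of day 6 or either WT array of day 12. H2-Bl fell by 1.75 at day 9 and 1.94 at day 12 (SE 0.12, adjusted p = 1.35e-06 and 4.43e-07), H2-Q2 by 1.07 and 0.94 and H2-Q4 by 1.07 and 0.81. These 3 belong to a family of near-identical genes whose transcripts their probes may share, so the values are uncertain as to gene. Azgp1, a secreted class I-like protein that binds lipids, rose at day 12 (log2 difference 2.36, SE 0.24, adjusted p = 2.41e-05).

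The KO minus WT difference was also compared between days. The genotype by day interaction was called for 17 of the 33 genes, against 18.5% of all genes. In the KO minus WT difference, 13 genes moved down between days 6 and 9 (9.19% of all genes) and 15 between days 6 and 12 (7.52%), and 0 moved up (3.52% and 5.64% of all genes). Between days 9 and 12, 1 of the 33 was called, Psmb10, which moved down. Of all genes 6.08% were called there, 2.02% down and 4.06% up, while 8 of the 33 and 22% of all genes had an unadjusted p under 0.05. Psmb10's difference was -0.95 at day 9 and -2.18 at day 12; the call was lost without KO day 9 replicate 1, WT day 9 replicate 2 or WT day 12 replicate 2, which left 0 genes.

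Counts of moves between days changed when single arrays of day 6, 9 or 12 were left out. The interaction count changed too, for example with arrays of day 6. It was 8 without KO day 6 replicate 2 and 11 without WT day 6 replicate 1. With the smooth muscle mean as a covariate, 3 genes were called for the interaction. Those moving down between days 6 and 9 and between days 6 and 12 then numbered 1 and 3. The shares of all genes called in these comparisons were not counted with that covariate. Whether the antigen presentation genes lost more calls than all genes is therefore not known. The counts of genes called lower in KO at days 9 and 12 stayed at 22 with that covariate. Counts in comparisons between days were thus lower with this covariate in the model. The same held in KO between days 9 and 12, where 8 genes were called lower with the covariate, against 14. The smooth muscle mean itself differs between the groups compared, so the covariate also costs precision. Smaller differences and wider errors were not told apart here. The part of muscle signal in these comparisons was not tested.

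The WT arrays were also compared between days. The day 9 minus day 6 difference in WT had a median of 0.36 over the 33 genes and 1.17 over the 4 class II chains, against 0.02 over all genes. H2-Aa (1.33, SE 0.19, adjusted p = 0.0463) and H2-DMa (1.31, SE 0.18, adjusted p = 0.0429) were called, in a comparison where 0.0602% of all genes were and 0.0401% were higher. The other class II genes ran between -0.87 for H2-Ob and 1.19 for H2-Ab1 and did not pass, and 18 of the 33 had an unadjusted p under 0.05 (9.48% of all genes). These calls were at the edge of the threshold. With 1 array left out in turn, H2-Aa kept its call only without either KO array of day 6, and H2-DMa there and without WT day 9 replicate 2; the differences stayed between 1.06 and 1.60 for H2-Aa and between 1.04 and 1.57 for H2-DMa. Both calls were lost with the smooth muscle covariate (1.15 for H2-Aa and 1.14 for H2-DMa, adjusted p = 0.161 and 0.152) and with the filter on dim genes (adjusted p = 0.0535 and 0.0527), and that of H2-Aa with quantile normalisation (1.27, adjusted p = 0.0761). Between days 9 and 12 in WT, limma called 0 genes of 19938, with an unadjusted p under 0.05 for 13 of the 33 and 8.94% of all genes. The F test over all 3 days in WT called 0 of the 33 (0.0201% of all genes), and 16 of the 33 had an unadjusted p under 0.05.

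In KO tissue the F test over days called 23 of the 33 genes, against 37.6% of all genes, and 10 with the smooth muscle covariate. Shares of all genes in this paragraph are those of the main fit and were not counted with the covariate. Between days 6 and 9, 8 fell and 1 rose (14.5% and 10% of all genes): B2m (-0.45), Mr1 (-0.78), Tap1 (-0.66), Tapbp (-0.63), Erap1 (-0.55), Canx (-0.34), Rfx5 (-0.78) and Rfxank (-0.55) fell and Nlrc5 (0.49) rose. Not 1 of the 4 class II chains was called in that interval (median 0.08), nor 1 of the 5 immunoproteasome genes (median -0.15). The count of 8 was 4 without KO day 6 replicate 1, 3 without KO day 6 replicate 2, 3 without KO day 9 replicate 1 and 2 with the smooth muscle covariate. Between days 9 and 12, 14 fell and 2 rose in KO (8.81% and 14.1% of all genes). H2-Ab1 (-0.97), H2-Eb1 (-0.85) and Cd74 (-0.46) and all 5 immunoproteasome genes, between Psmb10 (-1.42) and Psme1 (-0.52), were among the 14. Irf1 (-0.89) and Ciita (-0.60) were too, and Mr1 (1.19) and Rfx5 (0.43) rose. That count was 7 without KO day 9 replicate 1 or KO day 12 replicate 2, and 8 with the smooth muscle covariate.

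**Figure D4:**
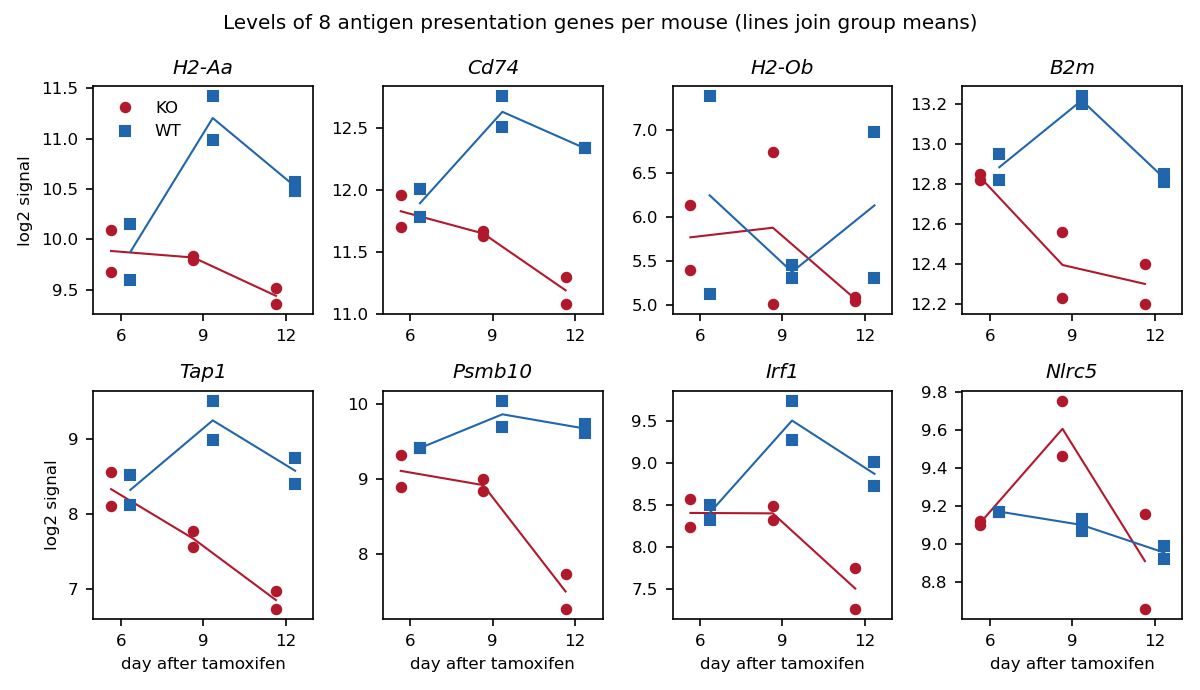
Log2 signal of 8 genes in each mouse against the day after tamoxifen, with circles for KO (left of each day) and squares for WT (right), and lines joining group means; each panel has its own axis. H2-Aa and Cd74 lie apart at day 9 with the WT arrays high, Tap1 and B2m fall in KO between days 6 and 9, Psmb10 and Irf1 fall in KO between days 9 and 12, and H2-Ob varies within groups.

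The day 9 difference and the WT change share the WT arrays of day 9, so KO was also set against all 6 WT arrays, a comparison added after the data were seen. At day 9, 20 of the 33 genes were lower in KO and 2 higher, where 39.3% of all genes were called (20.2% lower and 19.2% higher). At day 12, 23 were lower and 0 higher (15.7% and 17%). H2-Aa then differed by -0.71 at day 9 (SE 0.16, adjusted p = 0.00375) and by -1.09 at day 12, and Tap1 by -1.04 and -1.86. Of the day 9 falls, those of H2-Eb1 (-0.29, adjusted p = 0.191), Tap2 (-0.31, adjusted p = 0.0915), Psme1 (-0.11, adjusted p = 0.354) and Psme2 (-0.11, adjusted p = 0.518) no longer passed. At day 6, 7 genes were lower than the WT arrays of all days (5.49% of all genes were called, 2.73% lower): H2-Aa, H2-Ab1, H2-Eb1, Cd74, H2-DMa, Tapbpl and Erap1. Against the WT mice of day 6 alone these 7 had differences between -0.21 and 0.01, with 0 called.

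The MHC lies on chromosome 17, and 13 of the 33 genes are on it, in the order Tapbp, H2-Ke6, H2-Oa, H2-DMa, Psmb9, Tap1, Psmb8, Tap2, H2-Ob, H2-Ab1, H2-Aa, H2-Eb1 and H2-M3. Of these, 9 fell at each of days 9 and 12 (medians -1.09 and -1.08). Those that did not pass, H2-Ke6, H2-Oa, H2-Ob and H2-M3, lie among and beside the ones that did. Of the 20 genes on other chromosomes, 13 fell at each day (medians -0.51 and -0.51) and 1 rose at day 9.

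A list of interferon gamma, its receptor chains, their kinases and classical targets outside the 33 genes was set beside them. Of 22 measured, 14 fell and 1 rose at day 9 and 16 fell and 1 rose at day 12 (medians -0.74 and -0.87). Of all genes, 17.1% fell and 12.6% rose at day 9, and 13.7% did each at day 12. Ido1, which degrades tryptophan, averaged 6.63 in KO and 10.11 in WT at day 9 (difference -3.47, SE 0.31, adjusted p = 9.92e-06) and 6.82 in KO and 8.43 in WT at day 12 (-1.61, SE 0.31, adjusted p = 0.00211). Ubd, a ubiquitin-like protein, fell by 2.09 and 1.62 and the immunity GTPase Irgm1 by 1.97 and 1.02, while the chemokine Cxcl9 differed by -0.80 at day 9 (adjusted p = 0.0782) and fell by 2.18 at day 12 (SE 0.31, adjusted p = 2.93e-04). Ido1 was also higher in WT at day 9 than at day 6 (2.21), the 1 called gene of the list in that comparison. Not all of the list are targets: Ifngr2 (-0.36), a receptor chain, and Jak2 (-0.46), a receptor kinase, are among the 16 falls at day 12. These 2 genes, Ifng and Ifngr1 were picked out after the values were seen. Ifng averaged 4.92 to 5.18 over the 6 groups, with differences of -0.19 and -0.13 that did not pass. These signals lay below every array median (5.95 to 6.02), so Ifng was dim and a change in it could be missed. The receptor chain Ifngr1 was the gene that rose (0.44 at days 6 and 9 and 1.24 at day 12); without either KO array of day 9 the rises at day 12 numbered 2.

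The 23 interferon-stimulated genes linked mainly to type I interferon had another time course. At day 6, 5 rose and 0 fell (median 0.50), against 0.597% and 0.431% of all genes. These shares were 12.6% and 17.1% at day 9 and 13.7% each at day 12. The lowest adjusted p of the 5 at day 6 was 0.00687, and the others lay between 0.0342 and 0.0478. This count was not recomputed under the alternatives. Over all genes the day 6 calls numbered 205, and 18 with the smooth muscle covariate. At day 9, 0 rose and 10 fell (median -0.36), and at day 12, 0 rose and 13 fell (median -0.62); the count of 10 was 6 without KO day 9 replicate 1. Ifit1, which binds foreign RNA, fell by 1.79 and 2.39 at days 9 and 12 (SE 0.30, adjusted p = 8.77e-04 and 9.78e-05). Cmpk2, a nucleotide kinase, differed by -2.17 and -2.13, and Ddx58, the RNA sensor RIG-I, by -1.28 and -1.92, all past the test. Oasl2, of the oligoadenylate synthetase family, rose at day 6 (1.21, adjusted p = 0.0478) and fell at days 9 and 12, with means of 8.54 in KO and 9.54 in WT at day 9 and 7.12 in KO and 9.29 in WT at day 12. Of the 33 antigen presentation genes, 0 were called at day 6.

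**Figure D5:**
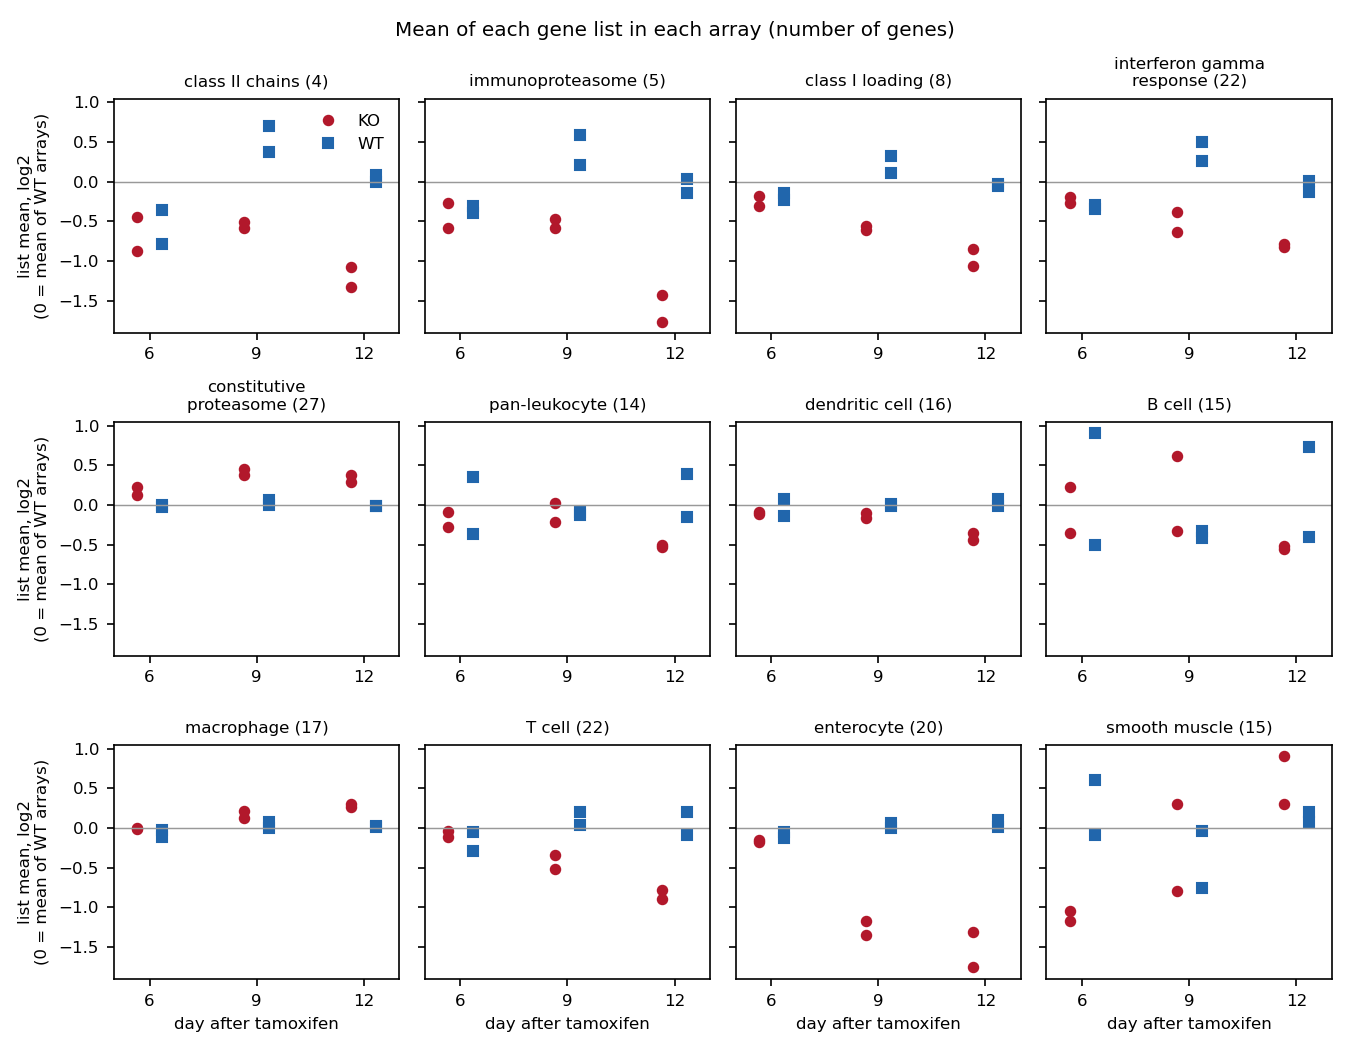
Mean log2 signal of 12 gene lists (panels, number of genes in brackets) in each mouse against the day, relative to the mean of the 6 WT arrays, with circles for KO (left of each day) and squares for WT (right). Class II chains, the immunoproteasome, class I loading and the interferon gamma list are lower in KO at days 9 and 12, the constitutive proteasome is higher, the B cell list varies within groups, and the enterocyte and T cell lists are lower in KO at days 9 and 12.

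Markers of cells that carry class II were set beside these results. Of all genes, 17.1% were called lower and 12.6% higher in KO at day 9, and 13.7% each way at day 12. Counts near these shares do not set a list apart from all genes. The mean of 16 dendritic cell markers was -0.17 and -0.10 in KO and -0.01 and 0.01 in WT at day 9, and -0.35 and -0.44 in KO and -0.01 and 0.08 in WT at day 12. In this list 3 genes fell at day 9 (5 without either WT array of day 6) and 5 at day 12 (3 without KO replicate 2 of that day). Among 17 macrophage markers 4 rose and 1 fell at day 9 and 9 rose and 3 fell at day 12; the 4 were 2 without WT day 9 replicate 1, the 1 fall was 2 without KO day 9 replicate 2, and the 3 were 1 without WT day 12 replicate 1 or KO day 12 replicate 2. Of 15 B cell markers 1 rose at day 9, and 1 rose and 1 fell at day 12. With 1 array left out, that rise at day 9 became 3 (KO day 9 replicate 2), and the fall at day 12 became 4 (WT day 12 replicate 1), 3 (either WT array of day 6), 2 (either KO array of day 9) or 0 (WT day 12 replicate 2). Genes of most leukocytes, 14 measured, had 0 calls at day 9 (array means 0.03 and -0.22 in KO, -0.13 and -0.09 in WT) and 6 falls at day 12 (-0.53 and -0.51 in KO, -0.15 and 0.39 in WT), 3 of them without WT day 12 replicate 2. At day 9 the class II chains averaged -0.51 and -0.58 in KO arrays, against 0.70 and 0.37 in WT arrays.

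Markers of T cells and of mature enterocytes were also lower on average in KO than in WT at days 9 and 12. Between days 6 and 9 the enterocyte markers had a median change of -0.75 in KO and 0.15 in WT. That of the T cell markers was -0.28 and 0.20. It was -0.13 and 0.36 for the 33 genes and 0.08 and 1.17 for the class II chains. Of all genes, 17.1% were called lower and 12.6% higher in KO at day 9, and 13.7% each way at day 12. Of 22 T cell and intraepithelial lymphocyte markers, 11 fell and 1 rose at day 9 and 14 fell at day 12, or 7 without KO day 9 replicate 1 and 9 without WT day 12 replicate 2. The 1 rise was lost when any 1 array of day 9 was left out, or either KO array of day 6 or either WT array of day 12. The T cell mean was -0.52 and -0.34 in KO and 0.20 and 0.04 in WT at day 9, and -0.78 and -0.89 in KO and -0.09 and 0.20 in WT at day 12. Of 20 enterocyte markers, 15 fell and 0 rose at day 9, and 15 fell and 1 rose at day 12, the rise being lost without KO or WT replicate 2 of that day. Their mean was -1.35 and -1.17 in KO and 0.00 and 0.06 in WT at day 9, and -1.75 and -1.31 in KO and 0.10 and 0.02 in WT at day 12. Genes of most intestinal epithelial cells did not share that fall: of 13, 4 rose and 2 fell at day 9 (2 rises without KO or WT replicate 1 of that day) and 3 rose and 2 fell at day 12. The 2 falls at day 9 were 1 without either KO array and 0 without either WT array of that day, and those at day 12 were 1 without KO replicate 2 and 0 without WT replicate 1. The part of these cell types in the lower antigen presentation signals was not tested.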

How the data were processed

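RNA was hybridised to Affymetrix Mouse Gene 1.0 ST arrays, 1 per mouse. The deposited log2 signals, one per probe set, were used as they stand; the submitters' processing notes name R 3.5 and limma, and no background correction or normalisation is stated for the values. Of 35556 probe sets, 21789 carry 1 gene symbol in the platform annotation, 1621 several and 12146 none; those with 1 symbol were kept, the brightest per gene, giving 19938 genes. Groups come from the sample titles.

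A group-means model over the 12 arrays was fitted with limma 3.58.1 in R 4.3.3 and moderated by eBayes, with Benjamini-Hochberg adjustment over all genes. Contrasts were KO minus WT at each day, changes between days, their interaction, and F tests. The fit was tested on simulated data. The median standard error was 0.11. With 2 mice a group, an exact test of 1 day cannot go below p = 0.333; p-values come from the spread pooled over groups. Arrays give no counts, so their number limits the precision.

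Genes named with values in every array were those called with a log2 difference of at least 1, and core genes of each arm; of other lists at most 4 called genes with the largest change were named, except where said. The 38 genes and all lists were chosen with earlier results of these data known. Alternatives were quantile normalisation, median centring, a filter on dim genes, only the arrays of a day, a trended robust prior, the mean of probe sets, a replicate block, a smooth muscle covariate, leaving out each array, and all WT arrays as reference, the last added after seeing the data. Same-numbered mice correlated across genes in their deviations at 0.18, -0.09 and 0.113 on days 6, 9 and 12. The labels give no pairing, these correlations cannot settle it, and the main model used none.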

Additional observations from a re-analysis of the deposited data

Results flagged for a closer look

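The KO minus WT difference changed between days in 17 genes by the interaction F test of limma (adjusted p under 0.05), which marks them for a closer look. From day 6 to day 12 the difference moved by -1.44 in H2-Ab1, -1.08 in Cd74, -1.73 in Tap1, -1.29 in Tapbp and -1.29 in Erap1. Over the same interval it moved by -2.02 in Psmb8, -1.72 in Psmb9, -1.87 in Psmb10, -0.69 in Psme1, -1.03 in Psme2 and -1.37 in Irf1. In the other 6 genes the larger move was that between days 6 and 9: -1.39 in H2-Aa, -1.22 in H2-DMa, -0.79 in B2m, -0.98 in Tapbpl, -0.47 in Canx and -0.96 in Rfx5. The adjusted p of the F test was lowest for Erap1 (3.96e-04) and highest for Canx (0.0481). Every one of these moves rests on the day 6 arrays, in which the smooth muscle genes averaged -1.04 and -1.17 in KO and 0.61 and -0.09 in WT. With the smooth muscle mean as a covariate 3 of the 33 genes were called. The share of all genes called with it was not counted. Groups of 2 mice are too small to test for a single outlying array.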

How the results depend on the processing

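Of 45 called differences at days 9 and 12, the alternatives other than leaving out an array or pooling WT arrays gave 360 comparisons, of which 353 kept direction and call, 6 lost the call and 1 turned sign; leaving out an array gave 540, of which 512 kept both and 28 lost the call, over 9 differences. The one that turned was Nlrc5 at day 9, at -0.026 with the mean of its probe sets. Many of these comparisons could not turn a sign. Leaving out an array of another day leaves the difference itself unchanged. So do the filter, the robust prior, the replicate block and the fit of a single day. These vary only the spread and the adjustment. The mean of probe sets changes only Nlrc5 and Irf1 among the antigen presentation genes. Counts of genes called higher at day 9 (1) were 2 with quantile normalisation, 0 with the mean of probe sets, 2 with all WT arrays as reference and 0 to 2 with an array left out; those at day 12 (0) were 0 to 1 with an array left out, and those averaged over days (0) were 1 with quantile normalisation, 1 with the replicate block and 0 to 2 with an array left out. The interaction count (17) was 3 with the smooth muscle covariate and 8 to 25 with an array left out, and the count changing over days in KO (23) was 10 with that covariate; the cause was not tested. With all WT arrays as reference 7 genes, against 0, were lower at day 6, and H2-Aa there differed by -0.65. The replicate block, whose numbers the labels do not describe as pairs, left 22 genes lower at day 9 and gave 24 at day 12. It gave 19 for the interaction. In that fit a change over days compares the levels of replicate 1, not group means. Its count of 20 for change over days in KO is therefore not comparable with 23. Over all genes at day 6 the replicate block called 101, against 205. Quantile normalisation called 174 there and the smooth muscle covariate 18, and the number also changed with an array left out. Leaving out an array gave 16 to 23 genes lower at day 9 and 20 to 23 at day 12. With 2 mice a group the spread rests on few arrays, and 5 listed genes were not measured apart from others.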

Other observations

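A list of endosomal and lysosomal genes held cathepsins and other proteases, which cut the proteins whose peptides class II presents, with protease inhibitors (Cst3, Cstb), membrane proteins (Lamp1, Lamp2) and a lipase (Lipa). Of 15 measured beside Ctss, 6 rose and 3 fell at day 9 and 10 rose and 0 fell at day 12 (medians 0.15 and 0.53). Of all genes, 12.6% rose and 17.1% fell at day 9, and 13.7% did each at day 12. The 3 falls at day 9 were 0 without KO day 9 replicate 1 or WT day 9 replicate 1 and 1 without WT day 9 replicate 2. Cathepsin L (Ctsl) rose by 1.06 at day 9 and 1.93 at day 12 (SE 0.17, adjusted p = 7.72e-04 and 7.79e-06), cathepsin D (Ctsd) by 0.94 and 1.31 and the asparagine endopeptidase Lgmn by 0.78 and 0.95. Cathepsin E (Ctse) fell at day 9 (-0.78, SE 0.20, adjusted p = 0.0125) and rose at day 12 (1.24, adjusted p = 7.01e-04).

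Folding enzymes of the endoplasmic reticulum, 19 measured, had 1 rise and 4 falls at day 9, 2 falls without KO or WT replicate 1 of that day, and 1 rise and 11 falls at day 12 (medians -0.09 and -0.41). The 1 rise at day 12 was 2 without KO day 12 replicate 2. Paired oxidases of this compartment moved apart: Ero1a rose by 1.39 and 0.80 (SE 0.09) and Ero1b, known from secretory cells, fell by 1.34 and 1.82 (SE 0.15) at days 9 and 12. The isomerase Pdia4 fell by 0.37 and 1.17 (SE 0.12), and the chaperone Hyou1 differed by 0.10 at day 9 and fell by 0.94 at day 12 (SE 0.13). For the folding enzymes and the next list, the shares of all genes were 12.6% higher and 17.1% lower at day 9, and 13.7% each way at day 12. Among 13 genes that costimulate or restrain T cells, 3 rose and 1 fell at day 9 and 2 rose and 3 fell at day 12. The 3 rises were 1 without KO day 9 replicate 2 or either WT array of day 9, and the 3 falls were 1 without KO or WT replicate 2 of day 12. Cd274, the checkpoint ligand PD-L1 and itself an interferon gamma target, fell by 1.43 and 1.04 (SE 0.21, adjusted p = 4.13e-04 and 0.00323), with means of 6.90 in KO and 8.33 in WT at day 9. The ligand Tnfsf9, at low group means of 3.89 to 5.24, rose by 1.05 and 0.62 (SE 0.11), Cd276 rose by 0.44 and 0.91 (SE 0.14), and Cd48 differed by -0.12 at day 9 and fell by 0.61 at day 12 (SE 0.17).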
